A study of Mus musculus with 2 samples.

Results

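Aminoacyl-tRNA synthetases are the enzymes that join each amino acid to its transfer RNA. Their genes were examined in G1E cells, an immortalised mouse erythroid progenitor line. The members were the protein-coding genes in both gene tables whose mouse symbol has the form of a synthetase name, such as Dars, Farsb, Lars2 or Eprs, and this rule used no measured value. It found 38 genes of the 43346 listed, of which 21461 are nuclear and protein-coding. By their known sites of action, 19 encode cytosolic enzymes, 2 (Gars for glycine and Kars for lysine) encode enzymes for both compartments, and 17 encode mitochondrial enzymes. The 38 genes lie on 15 chromosomes. The data are total RNA sequencing of 2 biological replicates of 1 group: G1E cells labelled C57BL/6J, male and lacking Gata1, without any treatment in the labels, sequenced from 1 ng of RNA longer than 200 nucleotides with spike-in transcripts added. Both libraries therefore share the labelled Gata1 loss and come from 1 cell line.

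Protein synthesis in a mammalian cell runs in the cytosol and, separately, inside mitochondria, and nuclear genes encode the synthetases of both. Most amino acids have a cytosolic enzyme and a separate mitochondrial one, whose gene symbol usually ends in 2 and whose product is imported. In the cytosol several synthetases sit together in the multisynthetase complex, held by the scaffold proteins Aimp1, Aimp2 and Eef1e1. Erythroid progenitors make large amounts of protein while they divide and prepare for globin synthesis, and both sets of enzymes are housekeeping genes.

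Replicate 1 held 31649878 estimated counts and replicate 2 held 40597614, and a count of 0 allowed up to 0.0948 and 0.0739 CPM, for counting error only. Nuclear protein-coding genes took 26.9% of the count in replicate 1 and 18.9% in replicate 2, most of the rest lying on Gm42418, which overlaps a ribosomal RNA repeat (52.6% and 40.3%), and the mitochondrial ribosomal RNAs (14.6% and 35.4%). TPM is the length-corrected level of a gene as a part of all transcripts of the library, these ribosomal RNAs included. The median detected nuclear protein-coding gene had 9.31 TPM in replicate 1 and 6.08 TPM in replicate 2. The SDs of TPM given here include that shift. Of 8 erythroid progenitor markers all were detected, among them Kit at 175 and 114.6 TPM, and of 10 markers of lymphocytes, fibroblasts, endothelium and pluripotent cells 9 were at 0 in both libraries and Pdgfra had 11 and 0 counts. Gata1 itself had 22.0 and 12.5 TPM, from 798 and 649 counts, which does not show whether a working product is made. In bulk RNA, fewer expressing cells and less RNA per cell cannot be told apart.

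Transcripts of 37 of the 38 synthetases were detected, meaning at least 1 TPM in both libraries, against 38.9% of nuclear protein-coding genes. The exception was Aars2, the mitochondrial enzyme for alanine, which had 1.31 TPM in replicate 1 and 0.71 TPM in replicate 2. Cytosolic enzymes were higher as a class, with a median of 26.3 TPM in replicate 1 and 17.5 TPM in replicate 2, against 3.64 and 2.36 TPM for the mitochondrial enzymes. The 2 enzymes that serve both compartments lay near the cytosolic ones, with medians of 32.6 and 20.4 TPM. In both libraries 17 of 19 cytosolic enzymes lay above the median detected nuclear protein-coding gene, and 2 of 17 mitochondrial enzymes, Lars2 and Rars2, did so. Of the 38 members, 37 had the higher TPM in replicate 1, and Fars2 was the exception. The median detected nuclear protein-coding gene was also higher there, at 9.31 against 6.08 TPM. The share of all genes with the higher TPM in replicate 1 was not computed, so this count does not set the members apart. After scaling the libraries to each other (TMM), 24 members had a ratio of replicate 1 over replicate 2 above 1 and 14 below.

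**Figure D1:**
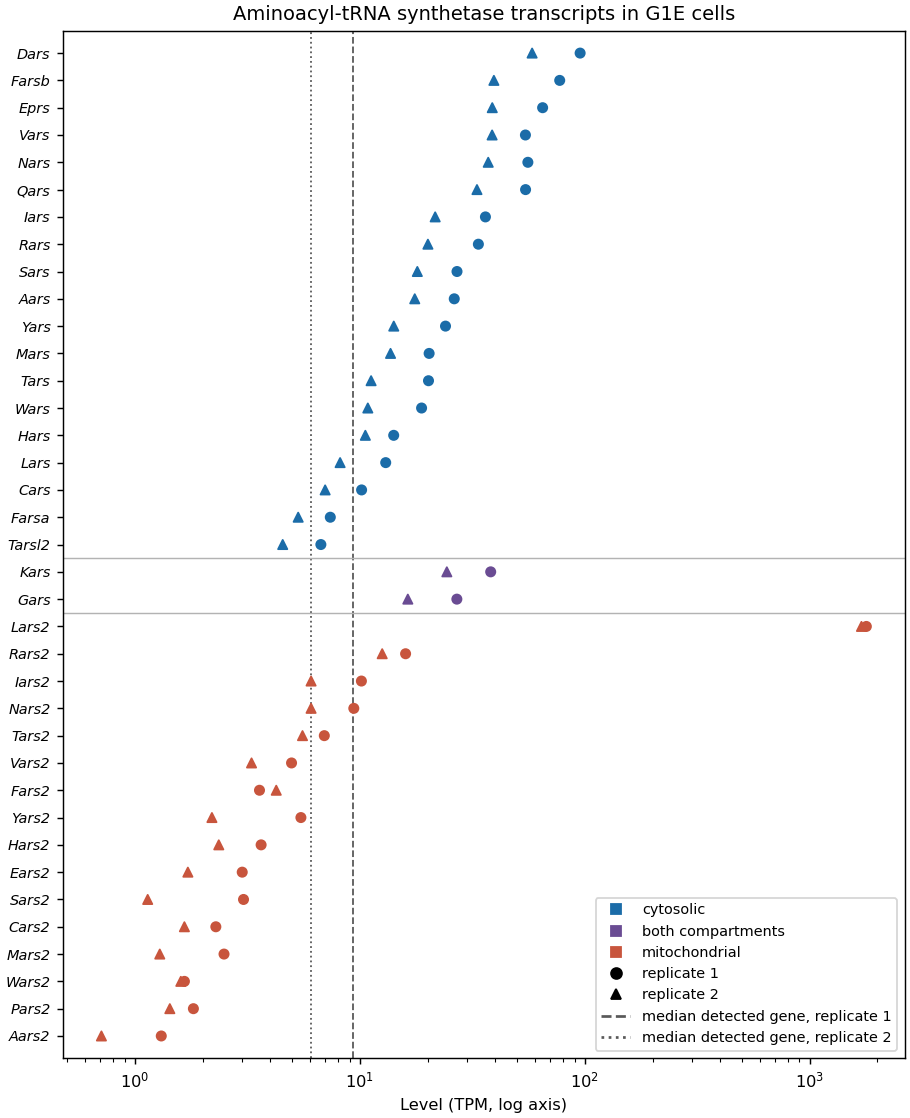
Level of the synthetase transcripts drawn, 1 mitochondrial member being left out, in G1E cells (TPM, log axis), with circles for replicate 1 and triangles for replicate 2. Vertical lines mark the median detected nuclear protein-coding gene in replicate 1 (9.31 TPM) and replicate 2 (6.08 TPM). Cytosolic enzymes (6.71 to 95.3 TPM in replicate 1) lie mostly to the right of these lines and mitochondrial enzymes to the left, with Lars2 far to the right of all others.

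Among the cytosolic enzymes, Dars, which charges aspartate tRNA, was highest. Dars (ENSMUSG00000026356.11, chromosome 1, 128363707 to 128417368, minus strand, GRCm38) had 95.3 TPM in replicate 1 and 58.3 TPM in replicate 2 (76.8 ± 26.2, SD, n = 2). Farsb (ENSMUSG00000026245.12, chromosome 1, 78417975 to 78488897, minus strand), the beta subunit of the phenylalanine enzyme, had 77.3 and 39.4 TPM. Eprs (ENSMUSG00000026615.10, chromosome 1, 185363044 to 185428360, plus strand), a fused enzyme for glutamate and proline, had 64.9 and 38.8 TPM. The 3 highest cytosolic members thus all lie on chromosome 1, far apart. Vars, for valine, followed at 54.5 and 38.7 TPM, and Nars, for asparagine, at 55.8 and 37.2 TPM. Vars and Nars had nearly the same mean, 46.6 ± 11.1 and 46.5 ± 13.2 TPM, and changed order between the libraries.

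At the low end of the cytosolic set were Cars, Farsa and Tarsl2. Cars, the cysteine enzyme, had 10.2 TPM in replicate 1 and 7.01 TPM in replicate 2. Farsa (ENSMUSG00000003808.14, chromosome 8, 84856989 to 84869257, plus strand), the alpha subunit of the phenylalanine enzyme, had 7.39 and 5.32 TPM. Tarsl2, a paralogue of the threonine enzyme Tars, had 6.71 and 4.54 TPM. The highest and lowest cytosolic members, Dars and Tarsl2, were 14.2-fold apart in replicate 1 and 12.8-fold apart in replicate 2. Tars itself had 20.2 and 11.2 TPM, 3.01-fold and 2.47-fold the level of Tarsl2.

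The subunits of the phenylalanine enzyme are known to assemble in equal number, yet their transcripts differed. Farsb was 10.5-fold higher than Farsa in replicate 1 and 7.41-fold higher in replicate 2 (8.94 ± 2.16, SD, n = 2). On protein-coding transcripts alone the ratio of TPM was 12.6 and 8.71. By estimated counts without length correction it was 7.09, from 1936 against 273 counts, and 5.12, from 1501 against 293 counts. Farsb exceeded Farsa at least 5-fold on every one of these scales, all of which include short Farsb transcripts. Farsb was spread over several transcripts: the full-length Farsb-201 (1951 nucleotides) took 35.0% and 45.0% of its TPM, and the 970-nucleotide Farsb-203 took 26.9% and 28.3%. Farsa-201 (1826 nucleotides) took 69.9% and 54.4% of the Farsa level. Farsb-201 alone had 27.1 and 17.7 TPM. Farsa-201 had 5.17 and 2.90 TPM, and Farsa-202 (1795 nucleotides) 0 and 1.02 TPM. The gap between these longer forms was smaller than that on all protein-coding transcripts.

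Enzymes of the multisynthetase complex had the higher median among those that work in the cytosol. The 8 complex members (Dars, Eprs, Iars, Kars, Lars, Mars, Qars and Rars) had median levels of 37.2 TPM in replicate 1 and 23.0 TPM in replicate 2, against 22.1 and 12.7 TPM for the 12 purely cytosolic enzymes outside the complex. The ranges overlapped widely: complex enzymes ran from 13.0 TPM (Lars) to 95.3 TPM (Dars) in replicate 1, and the others from 6.71 to 77.3 TPM. Their scaffolds were less abundant than the median complex enzyme. Aimp1 had 20.5 and 11.1 TPM, Eef1e1 17.7 and 8.61 TPM, and Aimp2 12.7 and 6.47 TPM. In both libraries the order of the 3 scaffolds was the same.

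Kars and Gars each supply both compartments from 1 gene through alternative forms of the product. Kars (ENSMUSG00000031948.9, chromosome 8, 111993443 to 112011323, minus strand) had 38.2 TPM in replicate 1 and 24.4 TPM in replicate 2. Gars (ENSMUSG00000029777.9, chromosome 6, 55038007 to 55079500, plus strand) had 27.0 and 16.3 TPM. Both lay inside the range of the cytosolic enzymes and above every mitochondrial enzyme except Lars2. All of the Kars level sat on protein-coding transcripts, with Kars-201 at 75.5% and 68.6% and Kars-203 at 16.1% and 23.7%.

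Apart from Lars2, mitochondrial enzymes were present at low levels. Rars2, the arginine enzyme, had 16.0 TPM in replicate 1 and 12.6 TPM in replicate 2. Iars2, for isoleucine, had 10.2 and 6.07 TPM. Nars2, for asparagine, had 9.40 and 6.07 TPM. Iars2 and Nars2 lay close together, and Rars2 stood above them in both libraries. By mean TPM the lowest members, after Aars2 (1.01 ± 0.42 TPM, SD, n = 2), were Pars2 for proline and Wars2 for tryptophan. Pars2 had 1.82 and 1.43 TPM and Wars2 had 1.66 and 1.60 TPM, from 92 and 89 counts and 133 and 141 counts. The deposited credibility intervals of these 2 genes overlapped in each library, 1.57 to 2.65 TPM for Pars2 and 1.38 to 2.30 TPM for Wars2 in replicate 1. In replicate 2 alone, Sars2 (1.14 TPM) and Mars2 (1.29 TPM) lay below both. By mean TPM, 14 of 19 cytosolic enzymes exceeded Rars2, the highest mitochondrial enzyme other than Lars2.

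Set against each other, the cytosolic and mitochondrial classes differed by 2.56 in replicate 1 and 2.46 in replicate 2, as the difference of median log2(TPM + 1). The mean difference was 2.51 ± 0.06 (SD, n = 2), a 5.70-fold gap after adding 1 TPM, and the median TPM values stood 7.22-fold and 7.43-fold apart. The gap was many times the spread between the libraries, but with 2 libraries the smallest two-sided p of an exact sign-flip test is 0.5, so no test was made. The size depended on the scale: without length correction, in CPM, the difference was 1.97 on the same log2 scale. Synthetase class, which divides the enzymes by the fold of their catalytic domain, made less of a difference than compartment. Cytosolic enzymes of class I had medians of 24.0 and 14.2 TPM and those of class II 26.3 and 17.5 TPM, while mitochondrial class I had 4.97 and 2.20 TPM and mitochondrial class II 3.61 and 3.31 TPM.

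The same direction appeared amino acid by amino acid. For 17 amino acids an enzyme of each compartment was listed, giving 19 gene pairs because phenylalanine and threonine have 2 cytosolic genes each. In 17 of 19 pairs the cytosolic gene had the higher TPM in both libraries, in 15 pairs by at least 2-fold and in 10 by at least 5-fold. The widest gaps, as differences of log2(TPM + 1), were those of Eprs over Pars2 (4.55 and 4.03), Eprs over Ears2, the mitochondrial glutamate enzyme (4.04 and 3.87), and Farsb over Fars2, the mitochondrial phenylalanine enzyme (4.10 and 2.95). Eprs enters with 2 partners because 1 gene carries both cytosolic activities. At the other end, Farsa exceeded Fars2 by only 0.87 and 0.27, and Tarsl2 lay slightly below Tars2, the mitochondrial threonine enzyme, by differences of -0.04 and -0.24 (mean -0.14 ± 0.14, SD, n = 2). Tars, by contrast, stood above Tars2 by 1.41 and 0.90. Leucine alone showed a large reversal, where Lars minus Lars2 gave -6.99 and -7.53.

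**Figure D2:**
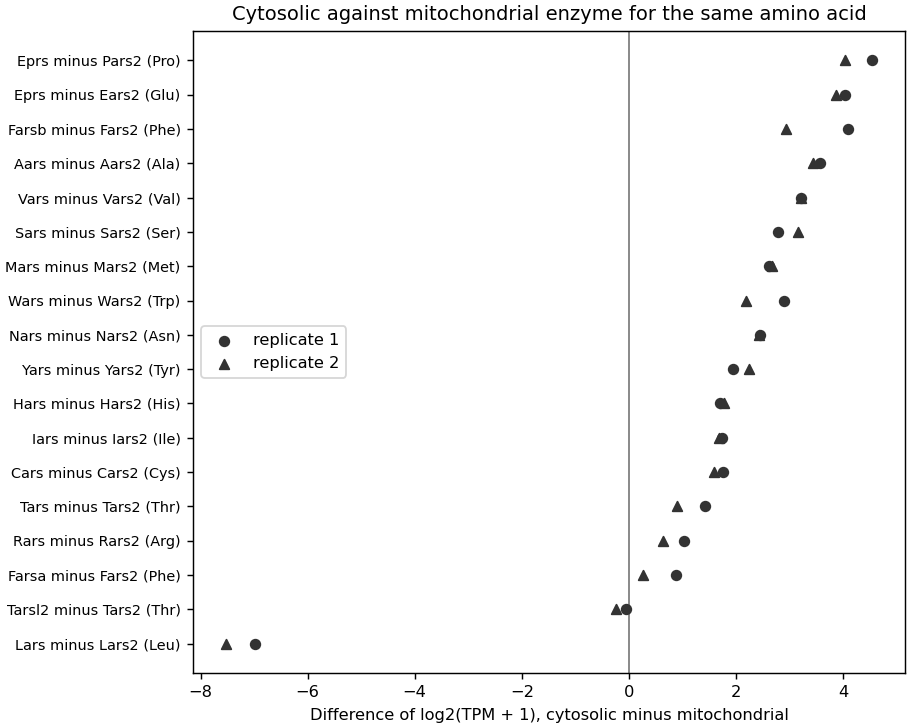
Difference of log2(TPM + 1) between the cytosolic and the mitochondrial gene for the same amino acid, with circles for replicate 1 and triangles for replicate 2; points right of 0 mean a higher cytosolic gene. The pairs drawn (1 of the 19 is left out) lie to the right in both libraries except that Tarsl2 minus Tars2 lies just left of 0 and Lars minus Lars2 lies at -6.99 and -7.53.

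Lars2, the mitochondrial leucine enzyme, stood apart from every other synthetase. Its high count was already known when these genes were chosen, so its level is only described here. Lars2 (ENSMUSG00000035202.7, chromosome 9, 123366927 to 123462666, plus strand) had 142551 estimated counts and 1784 TPM in replicate 1 and 187546 counts and 1697 TPM in replicate 2 (1741 ± 61.4 TPM, SD, n = 2). It ranked 4 and 2 among nuclear protein-coding genes. Its level was 494-fold the median of the other 16 mitochondrial enzymes in replicate 1 and 744-fold in replicate 2. Rars2, the next mitochondrial enzyme, was 112-fold and 135-fold lower, and the cytosolic leucine enzyme Lars, at 13.0 and 8.17 TPM, was 137-fold and 208-fold lower. Lars2 alone took 0.450% and 0.462% of all estimated counts, while the other 37 synthetases together took 0.129% and 0.0863%. Of all counts, ribosomal RNAs included, the share held by Lars2 was nearly equal in the libraries, and that of the other 37 was lower in replicate 2. Of nuclear protein-coding counts alone the picture was the reverse. There Lars2 took 1.67% in replicate 1 and 2.45% in replicate 2, and the other 37 took 0.478% and 0.457%.

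The transcript tables list 1 transcript of Lars2, of 3881 nucleotides and protein-coding, and all of the gene's level, 100% in both libraries, was assigned to it. That assignment follows from the listing and does not show where along the transcript the reads fell. The later annotation used here gives the transcript 3894 nucleotides in 21 exons, with the coding sequence at positions 200 to 2908 and 986 bases after it. In a sequence search, none of 303 synthetase transcripts aligned to mt-Rnr1, mt-Rnr2, Gm42418 or AY036118 at an E value of 0.001 or less. The large-subunit ribosomal RNA of the cytosol was not itself part of this search. Against the transcripts of all other genes, at an E value of 1e-20 or less, Lars2 aligned to 2, both in its last exon after the stop codon. Gm15564, an antisense transcript, matched 72 bases at 98.6% identity (transcript positions 3278 to 3349). AA474408, an unclassified transcript, matched the wider stretch from 3163 to 3349 over 196 aligned columns at 80.1% identity. Those genes had few counts themselves, 4 and 40 for Gm15564 and 57 and 59 for AA474408. The last 30 bases of the stretch shared with Gm15564 are printed on the plus strand of GRCm38, chr9:123462090-123462119, because they mark where in Lars2 sequence recurs elsewhere. Capitals mark the longest run in this window that is identical in Gm15564, 19 bases. Lower case does not mark a difference, since most of those bases are identical too.
Lars2: gtgagctgggaTTAGACCGTCGTGAGACAG

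This untranslated stretch is known to resemble the large-subunit ribosomal RNA of the cytosol. Ribosomal reads were abundant in both libraries, and the Lars2 count equalled 0.856% of the Gm42418 count in replicate 1 and 1.15% in replicate 2. Relative to mt-Rnr1 it was 7.25% and 3.89%, and relative to mt-Rnr2 5.38% and 1.97%. After TMM scaling Lars2 had a ratio of replicate 1 over replicate 2 of 0.678, Gm42418 of 0.908, mt-Rnr1 of 0.364 and mt-Rnr2 of 0.248. The Lars2 ratio thus lay between that of Gm42418 and those of the mitochondrial ribosomal RNAs, and below the median of all genes. The part of ribosomal reads in the Lars2 count was not tested, since positions of reads were not used here, so the Lars2 level cannot be read as a level of its mRNA. Leaving Lars2 out changed the mitochondrial median little, to 3.61 and 2.28 TPM.

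**Figure D3:**
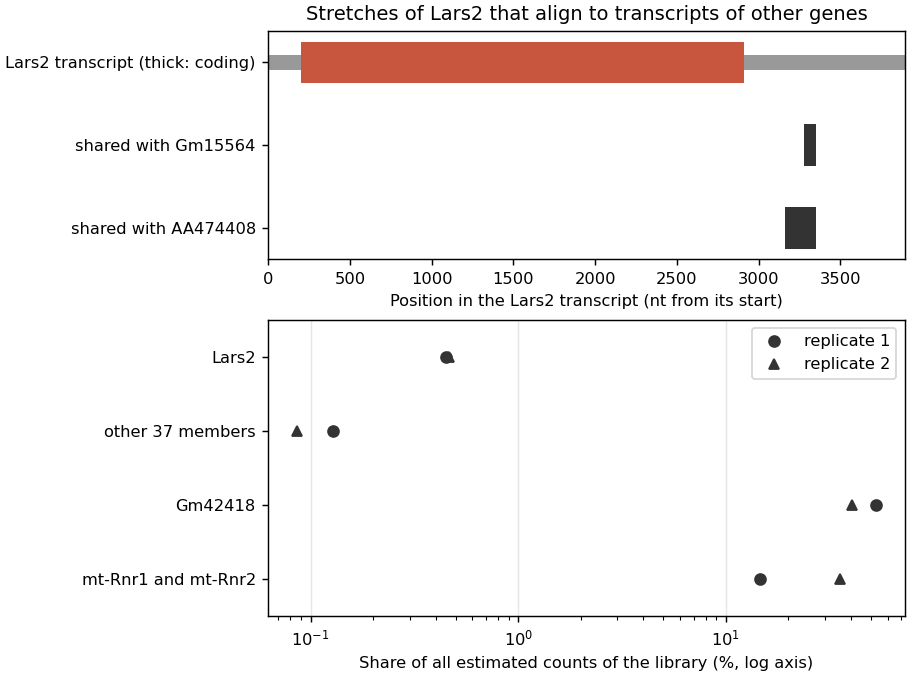
Upper panel, the Lars2 transcript drawn to scale in nucleotides from its start, with the coding sequence as the thick bar and the stretches that align to Gm15564 and AA474408 under it; both stretches lie after the coding sequence. Lower panel, share of all estimated counts of each library (percent, log axis) on Lars2 (0.450% and 0.462%), the other 37 synthetases, Gm42418 and the mitochondrial ribosomal RNAs, with circles for replicate 1 and triangles for replicate 2.

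Promoters of several cytosolic enzymes carried a sequence that the choice of genes had not used. The motif searched was TGATGNAA on either strand, the core of the element bound by ATF4 with C/EBP factors; ATF4 is known to raise cytosolic synthetase genes when amino acids are short. Windows ran from 250 bases before to 50 bases after the RefSeq start (GRCm38.p6), and 28 members matched an entry. The motif stood in 4 of 12 cytosolic promoters (Aars, Iars, Tars and Yars), in 1 of the 2 dual ones (Gars) and in 0 of 14 mitochondrial ones. The other cytosolic members, Vars, Nars, Rars, Wars, Hars, Lars and Cars, matched no entry and were not searched. Across all genes 4.51% of 27025 had it, and among detected nuclear protein-coding genes 2.43% of 6713. These are matches of letters, not shown binding sites, and the members without a match are not thereby shown to lack the factor. A window of 30 bases around a match in each of these 5 genes is printed 5′ to 3′ on the strand of the gene, with the motif in capitals, as TGATGNAA for Yars and as its reverse complement for the others. They lie at chr13:49682126-49682155 (plus) for Iars, chr4:129189895-129189924 (plus) for Yars, chr15:11399655-11399684 (minus) for Tars, chr6:55037960-55037989 (plus) for Gars, and chr8:111033840-111033869 (plus) for Aars.
Iars: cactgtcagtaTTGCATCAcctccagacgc
Yars: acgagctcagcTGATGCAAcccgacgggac
Tars: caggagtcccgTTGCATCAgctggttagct
Gars: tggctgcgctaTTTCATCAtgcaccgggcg
Aars: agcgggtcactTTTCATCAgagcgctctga

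The 4 cytosolic genes with the motif were not the most abundant. Iars (isoleucine) had 36.2 TPM in replicate 1 and 21.6 TPM in replicate 2, Aars (alanine) 26.3 and 17.5 TPM, Yars (tyrosine) 24.0 and 14.2 TPM, and Tars (threonine) 20.2 and 11.2 TPM. These values fall in the middle of the cytosolic range. Dars, Farsb and Eprs, the 3 highest, had no match in their windows, and Vars and Nars, next in level, were not searched.

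How far the gene levels stand for coding mRNA differed between members. Of the 38 genes, 10 had 1 listed transcript and the most, 18, were listed for Qars. In 20 members over 90% of the TPM lay on protein-coding transcripts in both libraries, while in 8 members under 50% did so in at least 1 library. The same shares were not computed over all genes, so these counts describe the members and do not set them apart. Qars, the glutamine enzyme, had 14.2% of its TPM on coding transcripts in replicate 1 and 11.2% in replicate 2. A further Qars transcript of 2150 nucleotides, with 13.6% and 16.5% of the TPM and the highest count of its transcripts, has no type in the annotation used and was not counted as coding. Mars, the methionine enzyme, had 19.4% and 9.72%, with 44.1% and 62.2% on the retained-intron transcript Mars-205. Ears2 had 12.0% and 13.4%, with 83.4% and 86.7% on the retained-intron transcript Ears2-203. Vars2, the mitochondrial valine enzyme, had 20.1% and 0%. Hars2 (37.1% and 39.0%), Cars (49.9% and 43.1%) and Vars (49.6% and 54.3%) were also among them. In all 8 of them the leading transcript was not a protein-coding one. These shares are model estimates that divide reads between overlapping transcripts, and short retained-intron fragments weigh heavily in TPM: Qars-215, of 600 nucleotides, took 21.7% and 23.0% of the Qars level from 121.8 and 106.9 counts. With coding transcripts alone the cytosolic minus mitochondrial difference was 2.40 ± 0.28 (log2 scale, SD, n = 2), and 16 pairs in place of 17 had the cytosolic gene higher, Farsa against Fars2 being the pair lost.

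**Figure D4:**
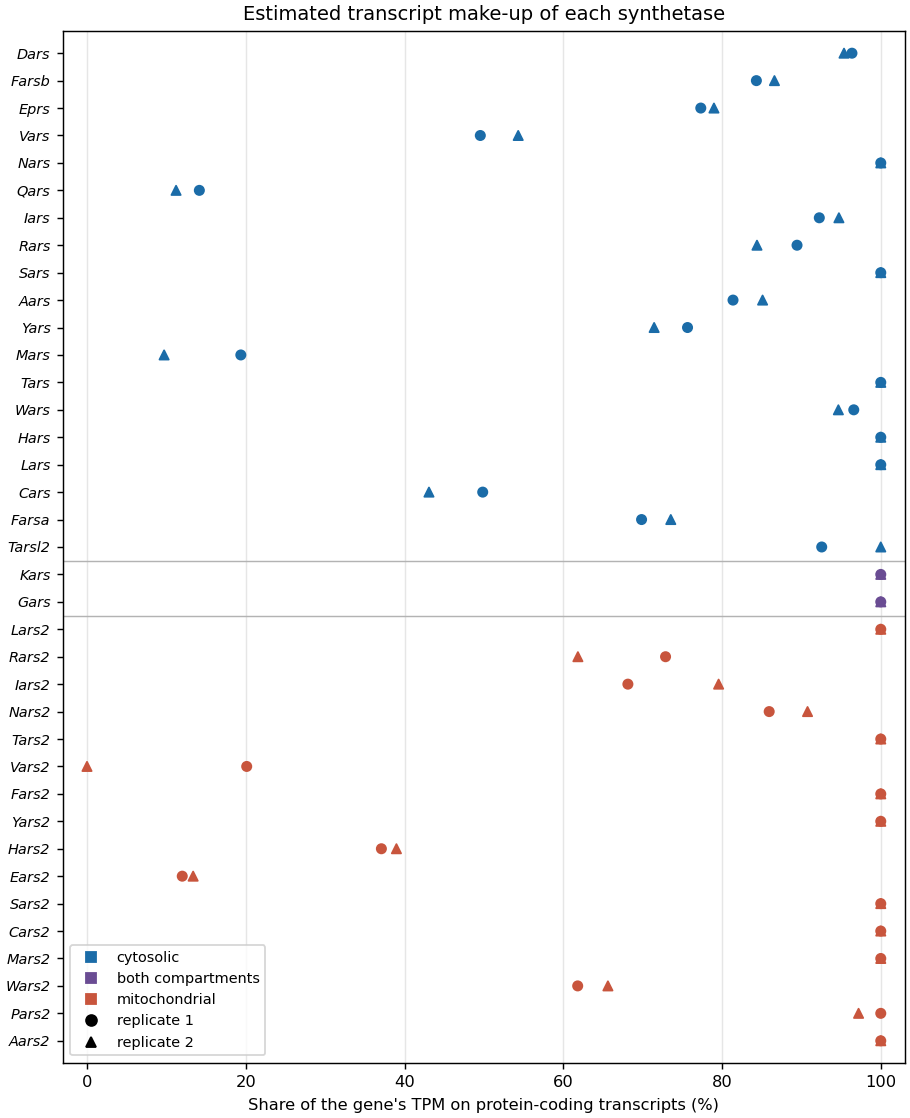
Share of a gene's TPM assigned to protein-coding transcripts (percent) for the synthetases drawn, 1 mitochondrial member being left out, with circles for replicate 1 and triangles for replicate 2 and genes in order of mean TPM within each compartment. Many genes sit at or near 100%, while Qars, Mars, Ears2, Vars2 and Hars2 sit below 40% in both libraries.

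Some members share exon sequence positions with a neighbouring gene, and the sources used here do not say whether the counting used strand. Exons of 14 members overlap exons of another listed gene on the opposite strand. The share over all genes was not computed. For Aars, Cars, Farsb and Vars2 the listed partner on that strand had 0 counts in both libraries. Ears2 shares 89 exon bases with Ubfd1 (933 and 825 counts, against 278 and 222 for Ears2). Yars shares 30 with C77080 (1689 and 1325 counts, against 1186 and 920 for Yars). Hars and Hars2, the cytosolic and mitochondrial histidine enzymes, lie head to head on chromosome 18 with 195 exon bases in common. Hars had 14.1 and 10.6 TPM and Hars2 3.64 and 2.36 TPM, so the pair kept the usual direction, by 1.71 and 1.79 on the log2(TPM + 1) scale. Iars2 shares 2034 exon bases with Rab3gap2, which had 533 and 485 counts against 875 and 780 for Iars2. Cars2 shares 422 bases with Naxd (247 and 287 counts, against 84 and 84 for Cars2), and Mars shares 68 with Ddit3 (768 and 647 counts, against 665 and 809 for Mars). Tarsl2 shares 120 bases on the same strand with Tm2d3 (46 and 74 counts, against 415 and 410 for Tarsl2). In the later annotation Aars shares 1326 exon bases on the same strand with Exosc6. Exosc6 is not among the listed genes, so it has no count to set beside that of Aars. Reads from such overlaps cannot be assigned with certainty to either gene.

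After TMM scaling the ratio between the 2 libraries lay within 2-fold for every synthetase, though the intervals of Sars2 and Fars2 reached past 2-fold. The ratio of replicate 1 over replicate 2 after TMM scaling was tested per gene with a two-sided exact binomial test on rounded estimated counts, adjusted over 11902 genes by the Benjamini-Hochberg method, and the limits for passing were an adjusted p of 0.05 and a ratio of 2-fold in either direction. None of the 38 passed as higher in replicate 1 (0 of 38, background 2.22%) or in replicate 2 (0 of 38, background 5.08%). Without the fold limit 10 were higher in replicate 1 (background 15.2%) and 5 in replicate 2 (background 17.2%), and 19 of 38 had an unadjusted p under 0.05 (background 41.4%). A negative binomial exact test called 0 members in either direction, where its background was 0.277% for replicate 1 and 2.21% for replicate 2. Its dispersion was estimated from the same 2 libraries that it compared, so a gene differing as much as most could hardly pass. Counts of 0 beside backgrounds this low do not set the members apart. Ratios were above 1 for 24 members and below 1 for 14, with a median log2 ratio of 0.06, against 0.00 for all genes tested. The cytosolic median was 0.07 and the mitochondrial one 0.00; the lower TPM of the members in replicate 2 was thus close to that of the median gene. This test covers counting error in a pair of libraries and compares no conditions.

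The extremes were mitochondrial. Sars2, the serine enzyme, with 116 counts in replicate 1 against 60 in replicate 2, had a ratio of 1.72 (95% interval 1.25 to 2.40, adjusted p = 0.0028 in the exact binomial test). Fars2 had 137 and 225 counts, a ratio of 0.543 (0.44 to 0.67, adjusted p = 1.59e-07 in the same exact test). Lars2, with its 0.678, had an interval of 0.67 to 0.68, narrow because of its high count. Among cytosolic enzymes the lowest ratio was that of Mars, with 665 and 809 counts and a ratio of 0.733 (adjusted p = 4.85e-08, exact binomial test), and the highest that of Tars at 1.16. All cytosolic ratios thus lay between 0.733 and 1.16.

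**Figure D5:**
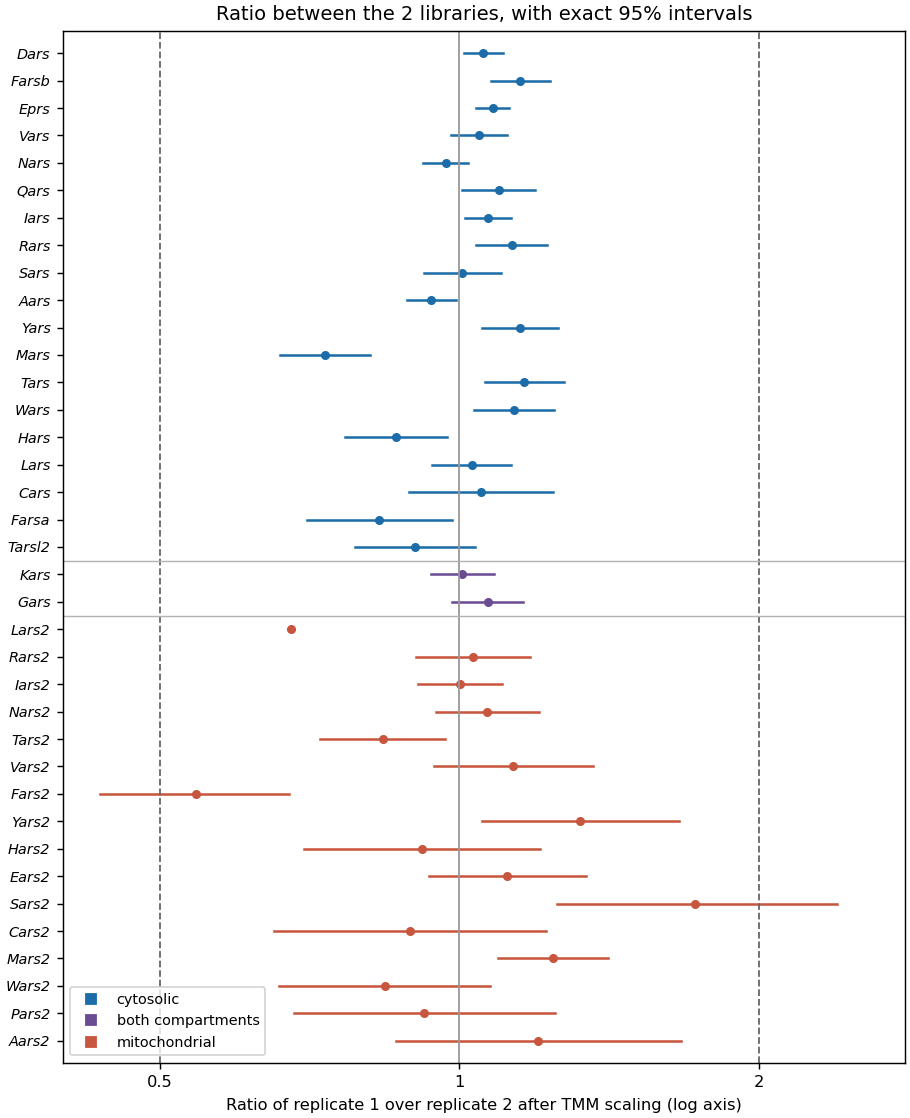
Ratio of replicate 1 over replicate 2 for the synthetases drawn, 1 mitochondrial member being left out, after TMM scaling (log axis), with exact 95% Clopper-Pearson intervals for counting error and dashed lines at the 2-fold limits. All point values lie inside the limits, from 0.543 (Fars2) to 1.72 (Sars2).

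Genes that act beside the synthetases spanned a wide range of levels. Mitochondria make glutamine-charged tRNA without a glutamine-tRNA synthetase of their own, through an amidotransferase of 3 subunits. Gatc had 20.1 TPM in replicate 1 and 12.1 TPM in replicate 2, Gatb had 4.66 and 3.12 TPM, and Qrsl1, the catalytic subunit, had 2.79 and 0.84 TPM. Gatc stood above the others, 4.30-fold and 3.88-fold over Gatb, while Qrsl1 fell under the detection limit in replicate 2. Aarsd1 and Prorsd1, relatives of synthetase editing domains, had 10.8 and 7.54 TPM and 8.65 and 6.36 TPM. Dtd2 and Dtd1, which remove wrongly attached amino acids from tRNA, had 7.22 and 4.22 TPM and 4.47 and 2.12 TPM.

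Charged tRNAs are brought to the ribosome by elongation factors, and here the contrast of compartments was wider than among the synthetases. Eef1a1, the cytosolic factor, had 4445 TPM in replicate 1 and 2713 TPM in replicate 2, and Tufm, its mitochondrial counterpart, had 17.9 and 12.5 TPM. Eef1a1 was thus 248-fold and 216-fold over Tufm. Eef1a2, the form of muscle and brain, had 0 counts in both libraries. None of the 3 scaffolds, 3 amidotransferase subunits, 4 editing genes and 2 elongation factors with counts passed the exact binomial test between the libraries at 2-fold, while 3, 1, 0 and 1 of them had an unadjusted p under 0.05, against 41.4% of all genes tested.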

How the data were processed

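Total RNA of 2 G1E libraries was analysed from 1 gene and 1 transcript table each. The columns, per the file headers, are estimated counts (expected counts, some of them fractional), TPM as a maximum-likelihood and as a posterior mean value, FPKM, and the isoform percent that divides a gene between its transcripts. The deposited signal columns used are bounds of the credibility interval of TPM. The file records deposited with them name mm10 and GENCODE M4; the sources used here do not give the aligner or quantifier.

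GENCODE M21 (GRCm38) supplied symbols, gene types and coordinates, with 42462 of 43346 genes matching once the version was dropped. Tests left out 97 spike-ins and 26248 numbered entries (3 and 7 counts). Counts were rounded and compared between libraries with a two-sided exact binomial test against TMM sizes (edgeR 4.0.16, R 4.3.3), over the 11902 genes with at least 10 counts in all. Quasi-likelihood tests have no residual degrees of freedom here. Intervals are Clopper-Pearson at 95% and cover counting error only; the common biological coefficient of variation over the pair of libraries was 26.3%. Simulated data with these library sizes held counting error only, with changes placed in genes of at least 100 counts. There the binomial test found 46.0% of 50 simulated 2-fold changes and 100% of those of 3-fold, 8-fold or 20-fold. It called 0% of the 11702 unchanged genes. These rates leave out any spread beyond counting error, so they do not give the error rate of the test on these libraries. Log scales used a pseudocount of 1 TPM. Sequences were searched with BLAST 2.17.0, and promoters came from a RefSeq table. Python 3.11.15, SciPy 1.17.1, NumPy 2.4.6, pandas 2.3.3, matplotlib 3.10.9 and DESeq2 1.42.0 (alternative size factors) were used besides. Protein features planned for comparison were not analysed here. A mitochondrial member and a promoter window are not reported here individually; the member is part of all counts and medians but of no figure.

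Full values are given for the 5 highest and 3 lowest cytosolic and mitochondrial members, both dual members, the 3 largest and 3 smallest differences by amino acid and the lists of partner genes; members with low coding shares, overlapping genes or the motif, and those with extreme library ratios, were named after their values were seen. The members and lists were chosen with earlier results of these data known. Alternatives were other estimates, pseudocounts, summaries, scalings, filters and class borders, and leaving out each library.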

Additional observations from a re-analysis of the deposited data

How the results depend on the processing

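The cytosolic minus mitochondrial difference of 2.51 kept its direction under every alternative run. It was 2.33 with posterior mean TPM, 2.39 with FPKM, 1.97 with CPM, 2.83 with a pseudocount of 0.1 TPM, 1.81 with the mean of log2 values, 2.33 among members with at least 1 TPM in both libraries, 2.15 with Gars and Kars counted as mitochondrial and 2.40 on coding transcripts, and 2.46 to 2.56 in a single library. Members higher in replicate 1 numbered 1 (Sars2) with total counts, 38 with spike-in counts and 10 with no fold limit. Of the 11902 genes tested, 1021, 11608 and 1807 were higher in replicate 1 under the same settings. With no fold limit, 5 members and 2045 of all genes tested were higher in replicate 2. Total counts shifted the median gene by 0.52 and spike-in counts by 4.50 on the log2 scale. Against that shift, spike-in scaling turned the ratios of Lars2 to 15.3, Fars2 to 12.3 and Mars to 16.6, and total counts turned Mars to 1.05. The spike-ins had only 514 counts in replicate 1, against 10351 in replicate 2. The Lars2 level relative to the median of the other mitochondrial enzymes was 494 and 744 by TPM in a single library, and in the mean over libraries 526 by posterior mean TPM, 620 by FPKM and 740.0 by CPM. By estimated counts Farsb was 6.11-fold over Farsa. Detected members numbered 26 at a limit of 5 TPM in both libraries. The cause of these changes was not tested. No paired analysis was possible because the labels give 1 group, and leaving out a library leaves no comparison of libraries. Low counts limit the precision for Sars2, Aars2, Cars2 and Pars2, and the number of libraries, 2, limits every SD.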
